A study of Mus musculus with 78 samples.

Results

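Liver RNA was compared between mice fed rapamycin for 2 months and mice fed the same diet without it. The comparison used 12 of the 78 libraries of a study of lifespan-extending interventions in mouse liver, chosen by their labels. Rapamycin was given at 42 ppm in Purina 5LG6 chow, and control mice ate Purina 5LG6 chow alone. All 12 mice were 6 months old and of the UM-HET3 stock, a genetically heterogeneous cross of inbred strains. The groups were rapamycin females, rapamycin males, control females and control males, with 3 mice each, which the series calls biological replicates. The whole study has 26 groups of 3 libraries, made from polyadenylated RNA and counted per gene. The same controls also serve 4 other interventions of that age.

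Rapamycin binds the small immunophilin FKBP12, and the pair docks onto the kinase mTOR and blocks the complex called mTORC1. When nutrients and insulin are plentiful, mTORC1 favours protein synthesis, ribosome production and lipid synthesis, the last of these partly through the SREBP transcription factors, and it holds back autophagy. Under long exposure rapamycin also disturbs mTORC2, the complex that activates the kinase AKT. In liver, these pathways link feeding to glucose output, lipogenesis and cholesterol synthesis. Much of this control acts on protein phosphorylation and translation, which counts of messenger RNA do not measure.

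The 12 libraries held between 24788089 and 31973353 assigned counts, and levels below are CPM, the count scaled to the library's total after trimmed-mean correction. Albumin (Alb), the main secreted protein of hepatocytes, lay between 39251 and 85173 CPM in the rapamycin libraries and between 43813 and 85477 CPM in the control libraries. Xist matched the labelled sex of all 12 mice. In bulk tissue, fewer cells of a type and less RNA per cell cannot be told apart.

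Some rapamycin libraries carried RNA of other organs. Rapamycin male 2 held 522 CPM of Star, 336 CPM of Cyp21a1, 360 CPM of Hsd3b1 and 244 CPM of Cyp11b1, genes that act in adrenal steroid synthesis. The other 11 libraries had at most 2.47 CPM of Star, 0.76 CPM of Cyp21a1, 0.73 CPM of Hsd3b1 and 0.53 CPM of Cyp11b1. The 12 adrenal cortex markers summed to 1997 CPM in rapamycin male 2, against 103 to 134 CPM in the other rapamycin libraries and 95.5 to 123 CPM in the controls. Adrenal medulla was present in the same library, with 131 CPM of Chgb, a chromaffin granule protein, against at most 0.21 CPM elsewhere. The adipose list summed to 417 CPM there, with 29.1 CPM of Adipoq, the fat cell hormone adiponectin. Among the controls, male 3 had the highest adipose sum, 73.5 CPM, and the other controls were at or below 9.05 CPM.

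A different tissue marked the other rapamycin mice. Myh6, the heart's alpha myosin heavy chain, was at 18.4, 20.2 and 20.4 CPM in rapamycin females and at 20.3 CPM in rapamycin male 1. It was at 0 in rapamycin males 2 and 3, and at most 0.078 CPM in controls. Over 12 heart muscle genes, picked after these values were seen, the sum was 49.8, 54.2 and 56.0 CPM in rapamycin females, 57.3 CPM in rapamycin male 1, 1.69 and 1.34 CPM in rapamycin males 2 and 3, and 0.54 to 1.59 CPM in controls. The 4 libraries with heart transcripts therefore do not overlap with the remaining 8. Several results below are also given without rapamycin male 2. Some are given for rapamycin males 2 and 3 alone, in a fit with the 6 controls. That comparison is free of the heart transcripts but small, and it keeps the adrenal and adipose RNA of rapamycin male 2. With no rapamycin female in it, its fold changes compare rapamycin males with control males only. Without rapamycin male 2, 6.78% of genes were higher and 6.45% lower at an unadjusted p under 0.05, and with rapamycin males 2 and 3 alone 3.3% were higher and 2.32% lower.

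**Figure D1:**
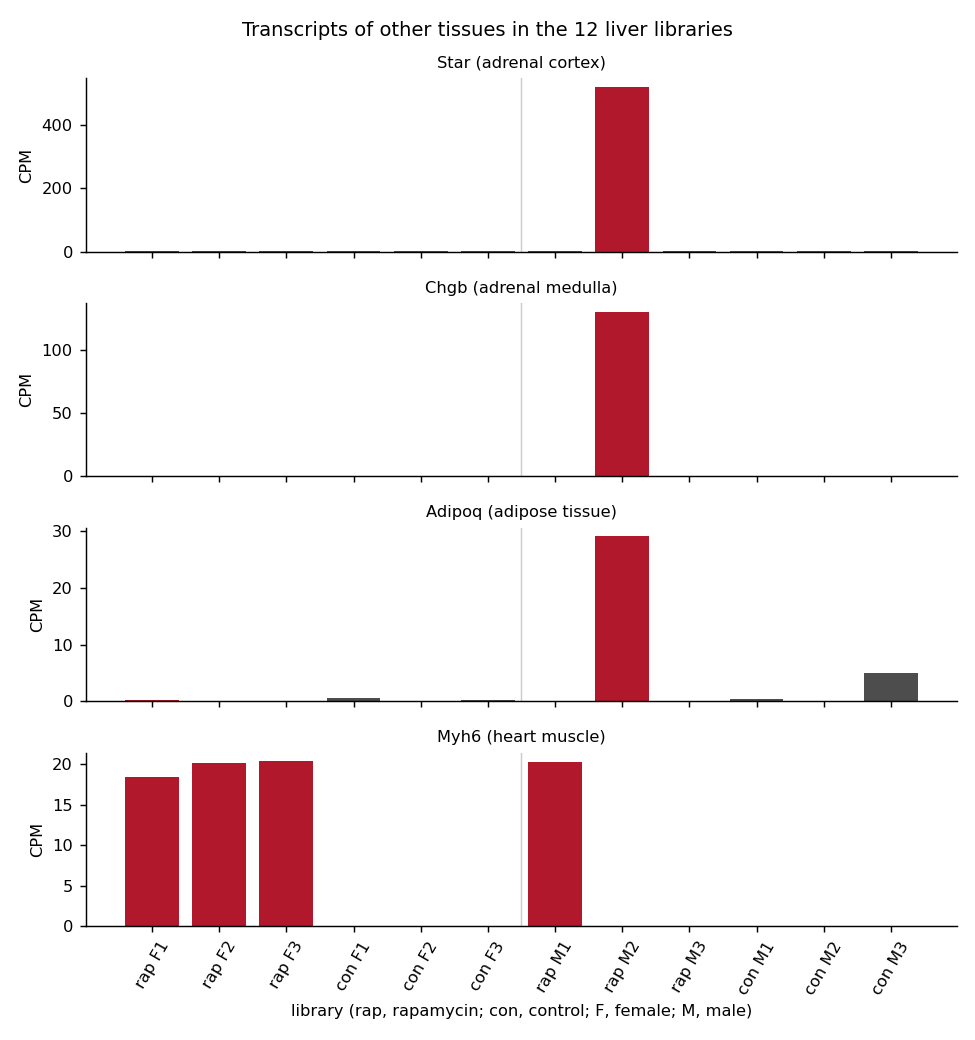
CPM of Star (adrenal cortex), Chgb (adrenal medulla), Adipoq (adipose tissue) and Myh6 (heart muscle) in each of the 12 libraries. Each bar is 1 library, with rapamycin left of control within each sex. Star, Chgb and Adipoq peak in rapamycin male 2 at 522, 131 and 29.1 CPM. Myh6 lies between 18.4 and 20.4 CPM in 4 rapamycin libraries and at or below 0.078 CPM in the other 8.

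Few genes passed a strict threshold. Of 14021 genes tested with sex as a covariate, 7 had an adjusted p under 0.05 (edgeR's quasi-likelihood test with Benjamini-Hochberg adjustment), which is 0.0499% of the genes. In the rapamycin group 4 of them were higher (mt-Nd3, Cenpl, Ppox and Mcts1) and 3 were lower (Sult3a1, Sult3a2 and Gm24187). At an unadjusted p under 0.05 there were 1009 higher genes, 7.2% of those tested, and 929 lower genes, 6.63%. In addition, 153 genes (1.09%) were higher in all 6 rapamycin libraries than in every control of the same sex, and 158 (1.13%) were lower in the same sense. The median log2 fold change over all genes was 0.01.

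The number of calls turned on single libraries. DESeq2 called 316 genes from the same counts, 165 higher and 151 lower, with all 7 among them. Without rapamycin male 2, edgeR called 14 genes, the 7 among them. Without control male 3, it called 62. Leaving out control female 2, control male 2 or rapamycin male 3 gave 16, 12 and 17 calls, while leaving out control female 1, control male 1 or rapamycin female 3 gave 1, 2 and 2. Without rapamycin female 1 or rapamycin female 2, edgeR called 0 genes, with 1870 and 1506 at an unadjusted p under 0.05. With rapamycin males 2 and 3 alone, it also called 0, with 784 at an unadjusted p under 0.05. DESeq2 was not run without those libraries. A fit to all 36 libraries of 6 months called 61 genes, and 8 without rapamycin male 2, all higher and 2 of them among the 7. Over the 12 fits that each left out 1 library, Sult3a1 stayed called in 10, Sult3a2 and mt-Nd3 in 8, Cenpl and Ppox in 6 and Mcts1 in 2.

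The lowest adjusted p belonged to Sult3a1, a sulfotransferase that female mouse liver expresses far above male liver (chr10:33857721-33879532, plus strand, GRCm38). Its level was 64.1, 66.4 and 88.3 CPM in rapamycin females, against 298, 238 and 483 CPM in control females. In males it was 0.03, 0 and 0 CPM with rapamycin, against 0.21, 0.31 and 0.26 CPM in controls. All rapamycin females lay below all control females, and male livers were near 0 in both groups. Females averaged 72.9 ± 13.3 CPM with rapamycin and 339.7 ± 127.7 CPM in controls (SD, n = 3 each). The fitted log2 fold change was -2.30 ± 0.26 (SE), with an adjusted p of 0.0144 in edgeR. The adjusted p in edgeR was 0.0981 without rapamycin female 1 and 0.114 without rapamycin female 2. It was 0.15 with all 36 libraries of 6 months and 0.264 with 35 of them, leaving out rapamycin male 2. It was 0.834 with rapamycin males 2 and 3 alone. That fit has no rapamycin female and cannot speak to the difference among females.

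Its neighbour on the opposite strand, Sult3a2 (chr10:33766424-33786704), was at 12.2, 12.5 and 23.8 CPM in rapamycin females, against 93.7, 58.6 and 175 CPM in control females. Rapamycin males were at 0, and control males at or below 0.099 CPM. The groups of females did not overlap, and the log2 fold change was -2.76 ± 0.37 (adjusted p = 0.0294, edgeR). Its adjusted p was above 0.05 in the same 5 alternatives, and also without control female 1, without control male 1 and with no filter on low counts. Sult3a1 and Sult3a2 are close paralogs, so how reads were shared between them is uncertain. Low levels were seen under other interventions too: of 12 females on acarbose, calorie restriction, 17-alpha-estradiol or Protandim at 6 months, 12 lay below the lowest control female for Sult3a1, between 9.71 and 168 CPM with a median of 56.1 CPM. For Sult3a2 all 12 lay below it too, between 1.63 and 53.4 CPM. These comparisons share the 3 control females.

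Of the genes that rose, mt-Nd3 encodes a subunit of respiratory complex I and lies on the mitochondrial genome. It was at 37.8, 40.8 and 37.0 CPM in rapamycin females and 36.8, 31.5 and 33.5 CPM in rapamycin males, against 16.4, 21.6 and 21.97 CPM in control females and 9.94, 17.6 and 18.8 CPM in control males. Every rapamycin library exceeded every control, rapamycin males 2 and 3 without heart transcripts included. Among the other 6-month interventions, 5 of 12 females and 8 of 12 males exceeded the highest control of their sex. The log2 fold change was 1.04 ± 0.14 (adjusted p = 0.0294, edgeR), and 1.07 with rapamycin males 2 and 3 alone. None of the 12 other mitochondrially encoded proteins, a list added after the values were seen, had as large a fold change. Of all 13, 6 were higher and 1, mt-Atp8, was lower at an unadjusted p under 0.05, with a median of 0.20. The shares over all genes were 7.2% and 6.63%.

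Cenpl encodes a centromere protein of the constitutive kinetochore network (chr1:161070713-161086724). Its levels were low, 2.51, 2.29 and 2.06 CPM in rapamycin females and 2.02, 1.83 and 2.80 CPM in rapamycin males, against 0.60, 0.90 and 0.62 CPM in control females and 0.60, 1.01 and 1.02 CPM in control males. The groups did not overlap in either sex, and the log2 fold change was 1.51 ± 0.21 (adjusted p = 0.0294, edgeR). None of the 22 tested cell cycle genes of a fixed list had an unadjusted p under 0.05 in either direction. Among the other 6-month interventions, 10 of 12 females and 9 of 12 males also exceeded the highest control of their sex for Cenpl.

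Ppox encodes protoporphyrinogen oxidase of haem synthesis (chr1:171275990-171281186). It was at 15.8, 14.1 and 15.5 CPM in rapamycin females and 14.8, 15.9 and 16.5 CPM in rapamycin males, against 8.21, 10.8 and 9.40 CPM in control females and 10.7, 10.6 and 12.0 CPM in control males. All rapamycin libraries lay above all controls, with a log2 fold change of 0.59 ± 0.08 (adjusted p = 0.0294, edgeR). Ppox overlaps B4galt3, and the strand setting of the counting is not given in the sources used here; B4galt3 itself had a log2 fold change of 0.11 ± 0.08. Of the other interventions, 9 of 12 females and 6 of 12 males were above the highest control for Ppox.

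Mcts1, whose product helps release and restart ribosomes after termination, had the smallest increase among the called genes (chrX:38600578-38613426). It was at 13.3, 14.5 and 14.4 CPM in rapamycin females and 15.7, 13.4 and 16.5 CPM in rapamycin males, against 10.3, 10.1 and 10.1 CPM in control females and 10.8, 9.61 and 11.3 CPM in control males. Again no rapamycin library fell within the control range. Of the other interventions, 5 of 12 females and 7 of 12 males exceeded the highest control for Mcts1. The log2 fold change was 0.49 ± 0.08 (adjusted p = 0.0387, edgeR). The last called gene, Gm24187, is annotated as a microRNA gene and stood at or below 0.41 CPM in rapamycin libraries and at 0.40 to 1.36 CPM in controls, with a log2 fold change of -2.04 ± 0.30 (adjusted p = 0.0294, edgeR). These are low values, and counting error limits their precision.

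**Figure D2:**
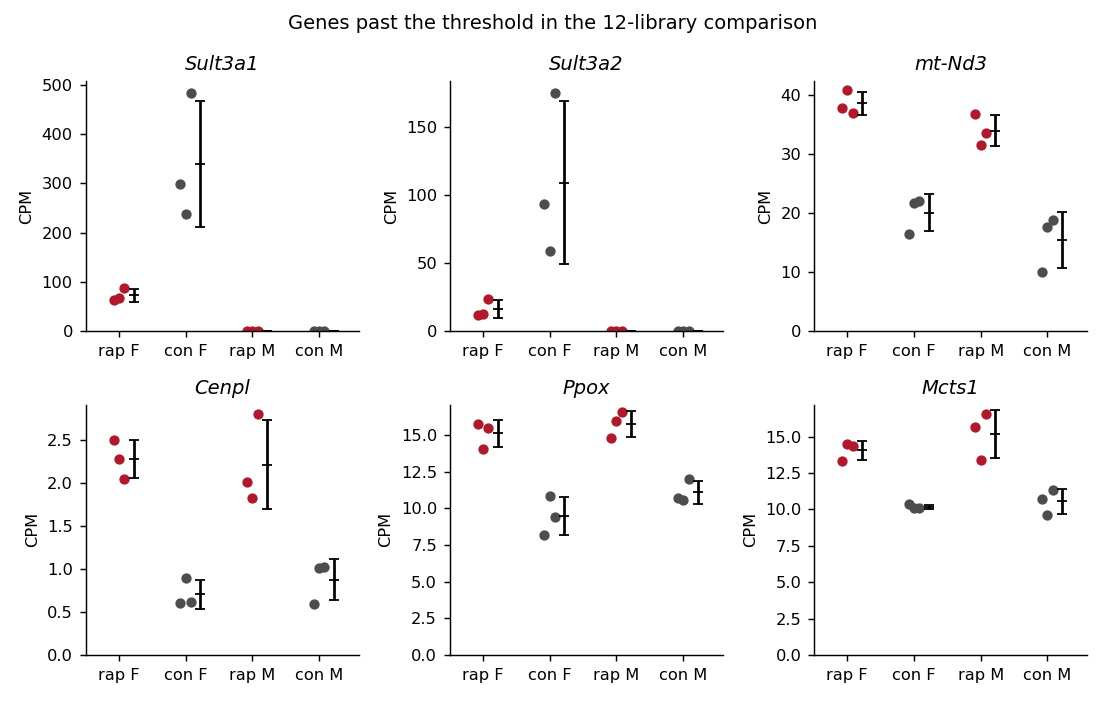
CPM of the genes past the threshold that the text describes in full, 1 point per library, with rapamycin left of control within each sex and a bar at the mean. Rapamycin females lie below control females for Sult3a1 and Sult3a2, and rapamycin libraries lie above every control for mt-Nd3, Cenpl, Ppox and Mcts1.

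Without rapamycin male 2, Cyp4a14 was among the 14 calls. It encodes a fatty acid omega-hydroxylase and is a classical target of PPAR-alpha. Rapamycin females were at 4309, 2449 and 3237 CPM and rapamycin males at 1244, 2676 and 789 CPM, against 9372, 5989 and 7190 CPM in control females and 2023, 2022 and 1799 CPM in control males. The 2676 CPM is rapamycin male 2, the 1 rapamycin library above the controls of its sex. The log2 fold change was -1.07 ± 0.17 without it (adjusted p = 0.0452, edgeR) and -0.75 ± 0.29 with it (adjusted p = 0.291, edgeR). On the other interventions, 11 of 12 females were below the lowest control female and 8 of 12 males below the lowest control male, with the same controls. Of the 7 further calls made without rapamycin male 2, Cyp4a14 was 1 and the other 6 were muscle genes, all higher: Pln, Tnni3, Myl3, Mybpc3, Hspb7 and Actn2, the last 2 named after their values were seen. The first 4 belong to the heart muscle genes above, and 12 of 12 of those were higher in the 12-library comparison at an unadjusted p under 0.05.

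The genes of the drug's own target pathway came next. Of 38 tested members of the mTOR complexes and their regulators, 1 was higher and 5 were lower at an unadjusted p under 0.05. That compares with 7.2% higher and 6.63% lower over all genes. Of the 38, 0 passed the adjusted threshold in edgeR, and 3 did in DESeq2. Their median log2 fold change was -0.02 and their range -0.75 to 0.90. Rptor, the substrate-binding subunit of mTORC1, was at 51.3, 53.6 and 51.1 CPM in rapamycin females and 60.2, 59.5 and 59.3 CPM in rapamycin males, against 65.0, 65.6 and 63.8 CPM in control females and 71.0, 67.2 and 64.2 CPM in control males. Every rapamycin library was below every control of its sex, but the difference was small, -0.25 ± 0.06 in log2 (adjusted p = 0.116, edgeR).

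Tsc2, a brake on mTORC1, had the same arrangement, with a log2 fold change of -0.24 ± 0.06 (adjusted p = 0.131, edgeR). Its level was 48.1, 49.7 and 49.8 CPM in rapamycin females and 63.7, 54.2 and 59.1 CPM in rapamycin males, against 57.3, 58.1 and 58.6 CPM in control females and 70.0, 69.3 and 68.8 CPM in control males. On the other interventions, 4 of 12 females and 10 of 12 males were below the lowest control of their sex for Tsc2. Above the highest control were 6 females and 2 males. Over all genes, 1.13% were lower and 1.09% higher in every rapamycin library than in every same-sex control. Prr5, a subunit of mTORC2, was the 1 member higher in every rapamycin library than in every control of its sex. It was at 6.19, 4.83 and 6.28 CPM in rapamycin females and 3.79, 3.93 and 4.58 CPM in rapamycin males, against 1.83, 2.35 and 4.03 CPM in control females and 3.28, 1.40 and 3.49 CPM in control males, a log2 fold change of 0.83 ± 0.24 (adjusted p = 0.193, edgeR). Sesn3, a sestrin that restrains mTORC1, was at -0.38 ± 0.16. Mtor itself was at 0.03 ± 0.11, and Eif4ebp1, whose product is the translation repressor that mTORC1 phosphorylates, at -0.03 ± 0.08.

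Of 13 tested FK506-binding proteins, the family of rapamycin's receptors, 1 had an unadjusted p under 0.05. That was Fkbp3, at 0.33 ± 0.09 in log2 (adjusted p = 0.16, edgeR). Fkbp1a, the gene of FKBP12, was at 54.8, 56.5 and 53.6 CPM in rapamycin females and 43.5, 54.0 and 57.8 CPM in rapamycin males, against 58.0, 49.1 and 53.9 CPM in control females and 43.8, 45.8 and 45.5 CPM in control males. These ranges overlap, and the log2 fold change was 0.12 ± 0.08 (adjusted p = 0.528, edgeR). The family ranged from -0.56 to 0.69. In the comparison of rapamycin males 2 and 3 alone, 5 of 13 were higher at an unadjusted p under 0.05, Fkbp1a among them. Over all genes 3.3% were higher in that comparison. It includes rapamycin male 2, the library with adrenal and adipose RNA. In the fit that leaves out rapamycin male 2, 1 of 13 was higher. Translation regulators downstream of mTORC1 (16 tested) and translation factors with TOP messages (15 tested) had 0 members at an unadjusted p under 0.05 in either direction.

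Genes induced by interferon formed the list with the largest share of higher members among the metabolic, translation and immune lists described here. Interferons bind receptors at the cell surface and switch on genes whose products restrict viruses and intracellular microbes. Of 34 tested members, 25 were higher and 0 lower at an unadjusted p under 0.05, against 7.2% and 6.63% of all genes, and the median log2 fold change was 0.71 against 0.01 over all genes. None passed the adjusted threshold in edgeR, whereas DESeq2 called 9 of them. Without rapamycin male 2 the count was 23 higher and 0 lower with a median of 0.68. With rapamycin males 2 and 3 alone it was 4 higher and 0 lower with a median of 0.58, against 3.3% of all genes higher. In the 12-library comparison, 0 of 34 members were higher in every rapamycin library than in every control of the same sex. The share over all genes was 1.09%, and a count of 0 is near it.

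Gbp7, a guanylate-binding protein that acts against intracellular pathogens, was at 24.5, 20.7 and 24.4 CPM in rapamycin females and 6.89, 11.2 and 11.6 CPM in rapamycin males, against 8.30, 10.4 and 13.8 CPM in control females and 9.13, 5.29 and 8.70 CPM in control males. The females did not overlap, while rapamycin male 1 lay within the range of control males. The log2 fold change was 0.74 ± 0.20 (adjusted p = 0.179, edgeR).

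Gbp3, of the same family, was at 0.91 ± 0.27 in log2 (adjusted p = 0.201, edgeR). Xaf1, an interferon-induced partner of the apoptosis inhibitor XIAP, reached 12.0, 4.32 and 8.26 CPM in rapamycin females and 1.29, 2.76 and 2.57 CPM in rapamycin males, against 1.86, 1.55 and 2.62 CPM in control females and 1.45, 0.74 and 2.21 CPM in control males. Rapamycin male 1 was again inside the control range, and the log2 fold change was 1.33 ± 0.38 (adjusted p = 0.193, edgeR). The secreted ubiquitin-like protein Isg15 was at 1.26 ± 0.41, the RNA-binding Ifit1 at 1.44 ± 0.47 and the deubiquitinase Usp18 at 1.04 ± 0.32.

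Several of these genes carry the repeated GAAA core of the interferon-stimulated response element close to their start. Promoter sequence from RefSeq (GRCm38.p6) was searched over the 250 bases before each gene's start on both strands for GAAANNGAAA, which reads TTTCNNTTTC on the other strand. It was present in 936 of 27025 promoters, 3.463%, and in 13 of the 26 tested interferon genes with a promoter in that table. Of the 17 of those that were higher at an unadjusted p under 0.05, 10 held it, and of the remaining 9, 3 did. A match is a description of letters and not a binding site. The 6 stretches below are members higher at an unadjusted p under 0.05, written along the gene's strand. The capitals mark only the first match in each window. Further matches in the Gbp3, Isg15, Ifit1 and Oas1a stretches are left wholly or partly in lower case. They lie at chr3:142530258-142530317 (Gbp7, plus strand), chr3:142559974-142560033 (Gbp3, plus), chr19:34583348-34583407 (Ifit3, plus), chr4:156200862-156200921 (Isg15, minus), chr19:34640760-34640819 (Ifit1, plus) and chr5:120907526-120907570 (Oas1a, minus).
Gbp7: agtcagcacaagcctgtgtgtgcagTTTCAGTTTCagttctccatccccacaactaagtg
Gbp3: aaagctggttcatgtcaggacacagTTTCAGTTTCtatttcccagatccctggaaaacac
Ifit3: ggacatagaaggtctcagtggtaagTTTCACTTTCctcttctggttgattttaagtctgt
Isg15: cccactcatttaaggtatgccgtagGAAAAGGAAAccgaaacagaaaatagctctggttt
Ifit1: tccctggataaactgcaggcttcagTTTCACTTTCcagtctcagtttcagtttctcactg
Oas1a: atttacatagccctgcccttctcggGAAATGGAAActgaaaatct

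Across libraries the interferon list was uneven. Taking each member's log2(CPM + 0.5) minus the mean of the same-sex controls, the median over members was 0.80, 0.65 and 1.12 in rapamycin females and 0.06, 0.41 and 0.72 in rapamycin males. In controls it was -0.31, -0.07 and 0.35 in females and 0.20, -0.56 and 0.22 in males. All rapamycin females exceeded all control females, whereas rapamycin male 1 lay inside the range of control males. Of the tested immune cell markers, 0 of 10 for T cells, 0 of 12 for B and plasma cells, 0 of 5 for natural killer cells and 0 of 14 for Kupffer cells and macrophages had an unadjusted p under 0.05. Their median log2 fold changes were 0.06 for T cells, 0.38 for B and plasma cells, 0.51 for natural killer cells and 0.02 for Kupffer cells and macrophages. Markers of endothelium had 12 of 12 members with a negative log2 fold change and a median of -0.36, though 0 had an unadjusted p under 0.05. The endothelial median was -0.47 without rapamycin male 2, with 2 lower members, -0.57 in females and -0.13 in males. By library it was 0.09, -0.41 and -1.55 in rapamycin females and -0.37, 0.13 and -0.19 in rapamycin males, against 0.16, 0.33 and -0.48 in control females and 0.24, 0.06 and -0.24 in control males. Rapamycin female 3, lowest in endothelial markers, was highest in the interferon list. The summed T cell markers lay between 2.68 and 7.34 CPM in rapamycin livers and between 3.38 and 7.94 CPM in controls. The summed Kupffer cell and macrophage markers lay between 194 and 434 CPM with rapamycin and between 198 and 381 CPM in controls. Neutrophil markers had 1 of 3 tested members higher, S100a8, and class II antigen presentation 1 of 7. The part of immune cells and endothelium in the interferon values was not tested.

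Cholesterol synthesis and uptake was the metabolic list with the clearest direction. SREBP2 drives these genes when cholesterol in the endoplasmic reticulum is low. Of 25 tested members, 14 were higher and 0 lower at an unadjusted p under 0.05, against 7.2% and 6.63% of all genes. All 25 of 25 had a positive log2 fold change, and the median was 0.60. None passed the adjusted threshold in edgeR, and DESeq2 called 3. Without rapamycin male 2, the library with adrenal transcripts, 12 were higher with a median of 0.63. With rapamycin males 2 and 3 alone, 1 was higher with a median of 0.45, against 3.3% of all genes higher in that comparison. In the 12-library comparison, 0 of 25 members were higher in every rapamycin library than in every control of the same sex. That is near the 1.09% over all genes.

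Dhcr7, which carries out the last step to cholesterol, was at 52.4, 57.5 and 48.6 CPM in rapamycin females and 79.7, 68.0 and 73.8 CPM in rapamycin males, against 29.0, 29.8 and 52.6 CPM in control females and 40.7, 30.8 and 50.5 CPM in control males. All rapamycin males exceeded all control males, but control female 3 was inside the range of rapamycin females. The log2 fold change was 0.68 ± 0.16 (adjusted p = 0.137, edgeR). Pmvk of the mevalonate pathway was at 0.52 ± 0.14 in log2, Lss, which closes the sterol rings, at 0.67 ± 0.21, and Acat2, which makes acetoacetyl-CoA, at 0.40 ± 0.13.

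Hmgcs1, which makes HMG-CoA, was at 290, 303 and 314 CPM in rapamycin females and 304, 196 and 289 CPM in rapamycin males, against 84.8, 77.6 and 354 CPM in control females and 135, 69.1 and 141 CPM in control males. Rapamycin males lay above control males, while control female 3 was above every rapamycin library. By library, the list's median was 0.57, 0.71 and 0.51 in rapamycin females and 0.92, 0.40 and 0.67 in rapamycin males, against -0.45, -0.39 and 0.76 in control females and 0.03, -0.46 and 0.36 in control males. Without control female 3 the list's median log2 fold change was 0.84. A core of the sterol element, TCACNCCAC (GTGGNGTGA on the other strand), was in 331 of 27025 promoter windows, 1.225%, and in 1 of 17 tested members with a window. That member was Hmgcs1, at chr13:119690189-119690247 on the plus strand of GRCm38.p6 (RefSeq), shown with the match in capitals.
Hmgcs1: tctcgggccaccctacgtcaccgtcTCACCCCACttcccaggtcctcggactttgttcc

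Fatty acid synthesis followed less clearly. Of 22 lipogenesis genes, 5 were higher and 1 lower at an unadjusted p under 0.05, against 7.2% and 6.63% of all genes. Their median was 0.26. Without rapamycin male 2, the library with adipose transcripts, the count was 1 higher and 2 lower with a median of 0.18. Fasn, the fatty acid synthase, was at 887 CPM in rapamycin male 2, against 223 to 269 CPM in the other rapamycin libraries and 99.7 to 352 CPM in controls. Srebf1, which encodes SREBP1, was at 202, 216 and 148 CPM in rapamycin females and 183, 160 and 160 CPM in rapamycin males, against 64.8, 64.5 and 87.0 CPM in control females and 151, 96.4 and 222 CPM in control males. The females did not overlap and the males did, with a log2 fold change of 0.74 ± 0.27 (adjusted p = 0.267, edgeR). Insig2, which retains SREBP in the endoplasmic reticulum, was at 220, 167 and 275 CPM in rapamycin females and 203, 157 and 228 CPM in rapamycin males, against 589, 410 and 387 CPM in control females and 245, 402 and 188 CPM in control males. Its log2 fold change was -0.79 ± 0.21 (adjusted p = 0.168, edgeR), and the females did not overlap. Among females on the other interventions, 12 of 12 were below the lowest control female for Insig2 and 11 of 12 were above the highest for Srebf1, with the same 3 control females.

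Ribosome production genes leaned the other way. Of 26 ribosome biogenesis genes, 0 were higher and 12 lower at an unadjusted p under 0.05, against 7.2% and 6.63% of all genes. Their median was -0.18. The count was 12 again without rapamycin male 2, and 2 with rapamycin males 2 and 3 alone (median -0.15). In those comparisons 6.45% and 2.32% of all genes were lower. None passed the adjusted threshold in edgeR, and DESeq2 called 1. Of the 26, 0 were lower in every rapamycin library than in every control of the same sex. That is near the 1.13% over all genes. Rrp12, an export factor for pre-ribosomes, was at 10.5, 10.8 and 10.0 CPM in rapamycin females and 11.7, 10.4 and 10.4 CPM in rapamycin males, against 18.2, 14.4 and 13.7 CPM in control females and 12.1, 16.5 and 11.2 CPM in control males. Rapamycin females were all below control females, and among males rapamycin male 1 lay inside the control range. The log2 fold change was -0.43 ± 0.11 (adjusted p = 0.16, edgeR). On the other interventions, 9 of 12 females and 4 of 12 males were also below the lowest control of their sex for Rrp12. Above the highest control were 0 females and 3 males. The controls are the same.

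Nop2, an RNA methyltransferase of the nucleolus, was at -0.34 ± 0.09 in log2. Polr1a, the largest subunit of RNA polymerase I, was at -0.34 ± 0.10, and Heatr1, needed for pre-ribosomal RNA processing, at -0.26 ± 0.08. Among females on the other interventions, 4, 11 and 7 of 12 lay below the lowest control female for Nop2, Polr1a and Heatr1. Above the highest control female lay 2, 0 and 0. By library, the list's median was -0.23, -0.16 and -0.16 in rapamycin females and -0.08, -0.15 and -0.11 in rapamycin males. In controls it lay between -0.09 and 0.10. All rapamycin females lay below the control females, but rapamycin male 1 and control male 3 were at the same level to 2 decimals.

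The ribosomal proteins themselves did not follow. Of 79 cytosolic ribosomal protein genes, 16 were higher and 0 lower at an unadjusted p under 0.05, with a median of 0.11. Over all genes 7.2% were higher and 6.63% lower. Of the 79, 2 were higher in every rapamycin library than in every control of its sex, against 1.09% of all genes. Rpl38 of the large subunit was at 94.0, 95.8 and 106 CPM in rapamycin females and 91.8, 88.8 and 112 CPM in rapamycin males, against 84.8, 70.9 and 68.8 CPM in control females and 44.5, 78.6 and 56.6 CPM in control males. The groups did not overlap, and the log2 fold change was 0.55 ± 0.13 (adjusted p = 0.131, edgeR). Many of these genes have near-identical processed pseudogenes, so their counts depend on how shared reads were treated.

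Nuclear genes of the respiratory chain were similar. Of 54 tested, 20 were higher and 0 lower at an unadjusted p under 0.05, against 7.2% and 6.63% of all genes. Their median was 0.08. Of these 54, 6 were higher in every rapamycin library than in every control of its sex, against 1.09% of all genes. With rapamycin males 2 and 3 alone, which lack heart transcripts, 8 were higher and 0 lower, against 3.3% and 2.32% of all genes. Atp5k, subunit e of ATP synthase, was at 72.5, 77.0 and 79.0 CPM in rapamycin females and 82.2, 70.4 and 83.2 CPM in rapamycin males, against 60.3, 51.4 and 60.8 CPM in control females and 39.4, 54.4 and 47.3 CPM in control males. The groups did not overlap, and the change missed the threshold, at 0.57 ± 0.10 in log2 (adjusted p = 0.0741, edgeR). Atp5e of the same enzyme was at 0.48 ± 0.10 (adjusted p = 0.0975, edgeR), Uqcrb of complex III at 0.34 ± 0.07 (adjusted p = 0.0972, edgeR) and Ndufa1 of complex I at 0.35 ± 0.09 (adjusted p = 0.149, edgeR).

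These 2 lists are rich in short genes, and short genes were more often higher in general. Among protein-coding genes with under 1 kb of annotated exon, the median log2 fold change was 0.18 and 25.1% were higher at an unadjusted p under 0.05. The median was 0.06 for genes of 1 to 2 kb, 0.03 for 2 to 4 kb and -0.02 for over 4 kb, where 5.11% were higher and 8.79% lower. Within the same length classes the respiratory chain medians were 0.26, 0.10, 0.04 and 0.03, and those of ribosomal proteins 0.18, 0.12, 0.09 and 0.12. Over 4 kb, 11 of 13 interferon genes and 9 of 16 cholesterol genes were higher at an unadjusted p under 0.05. For ribosome biogenesis, 5 of 9 genes of 2 to 4 kb and 7 of 16 genes over 4 kb were lower. Among protein-coding genes of 2 to 4 kb, 5.28% were lower. These classes hold few list members. The part of transcript length in these results was not tested.

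**Figure D3:**
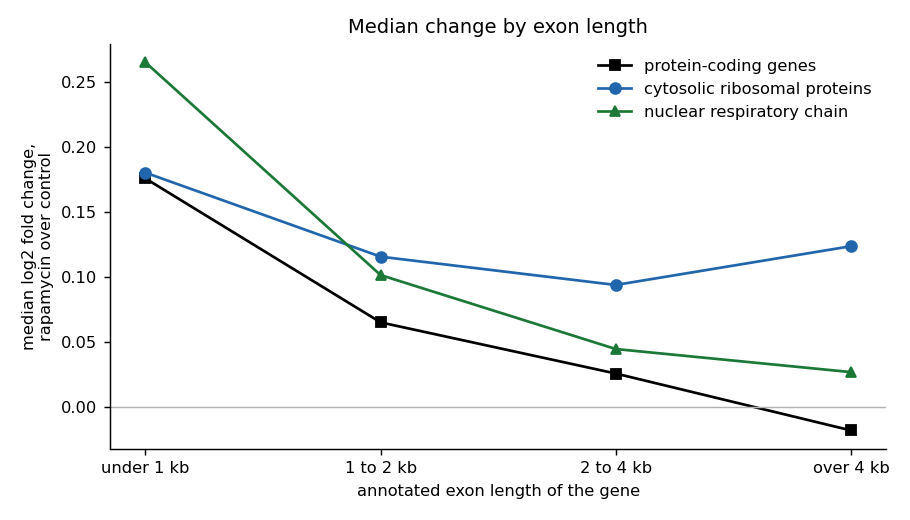
Median log2 fold change of rapamycin over control by annotated exon length (under 1 kb, 1 to 2 kb, 2 to 4 kb, over 4 kb), 1 line per gene group. Protein-coding genes descend from 0.18 to -0.02, and the respiratory chain from 0.26 to 0.03.

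Loci that collect ribosomal or non-polyadenylated RNA were lower with rapamycin as well. Gm42418, which overlaps a ribosomal RNA repeat, was at 200, 286 and 247 CPM in rapamycin females and 438, 378 and 570 CPM in rapamycin males, against 695, 496 and 497 CPM in control females and 775, 3106 and 819 CPM in control males. Lars2, whose annotation carries a similar repeat, was at 65.8, 79.3 and 86.1 CPM in rapamycin females and 120, 118 and 148 CPM in rapamycin males, against 227, 128 and 141 CPM in control females and 198, 596 and 196 CPM in control males. Both were lower in each rapamycin library than in all controls of its sex (adjusted p = 0.131 for each, edgeR), as was the non-polyadenylated RNA Rn7sk (adjusted p = 0.123, edgeR). These 3 were picked after their values were seen, and their part in the gene results was not tested.

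Insulin and glucose genes had few members at an unadjusted p under 0.05. Of 19 genes of glucose synthesis and FOXO1 targets, 0 were higher and 2 lower, against 7.2% and 6.63% of all genes. Their median was -0.20. Irs2, the insulin receptor substrate whose transcription FOXO1 raises, was at 38.2, 23.5 and 41.1 CPM in rapamycin females and 21.3, 22.4 and 16.5 CPM in rapamycin males, against 60.9, 55.6 and 49.7 CPM in control females and 55.2, 33.2 and 20.3 CPM in control males. The females did not overlap, and the log2 fold change was -0.77 ± 0.22 (adjusted p = 0.192, edgeR). Slc37a4, the glucose-6-phosphate transporter, was at -0.42 ± 0.14. The gluconeogenic enzymes Pck1, at -0.20 ± 0.20, and G6pc, at -0.33 ± 0.26, had unadjusted p-values above 0.05.

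Of 24 heat shock and glucocorticoid response genes, 2 were higher and 5 lower, with a median of -0.32, against 7.2% higher and 6.63% lower over all genes. With rapamycin males 2 and 3 alone, 2 were higher and 0 lower, against 3.3% and 2.32% of all genes. Mt2, a metal-binding metallothionein, was higher in every rapamycin library than in every control of its sex: 404, 259 and 416 CPM in rapamycin females and 148, 155 and 171 CPM in rapamycin males, against 257, 151 and 162 CPM in control females and 31.2, 71.4 and 111 CPM in control males. Its log2 fold change was 1.04 ± 0.26 (adjusted p = 0.16, edgeR). The chaperone gene Hspa1b was at -1.12 ± 0.38, Hspa1a, its near-identical copy, at -1.83 ± 0.55, and their co-chaperone Bag3 at -0.65 ± 0.17, all with an adjusted p above 0.15 in edgeR. Autophagy and lysosome genes had 0 of 35 higher and 2 lower, proteasome genes 0 of 31 higher and 5 lower (2 lower without rapamycin male 2), and the amino acid response 0 of 24 in either direction.

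**Figure D4:**
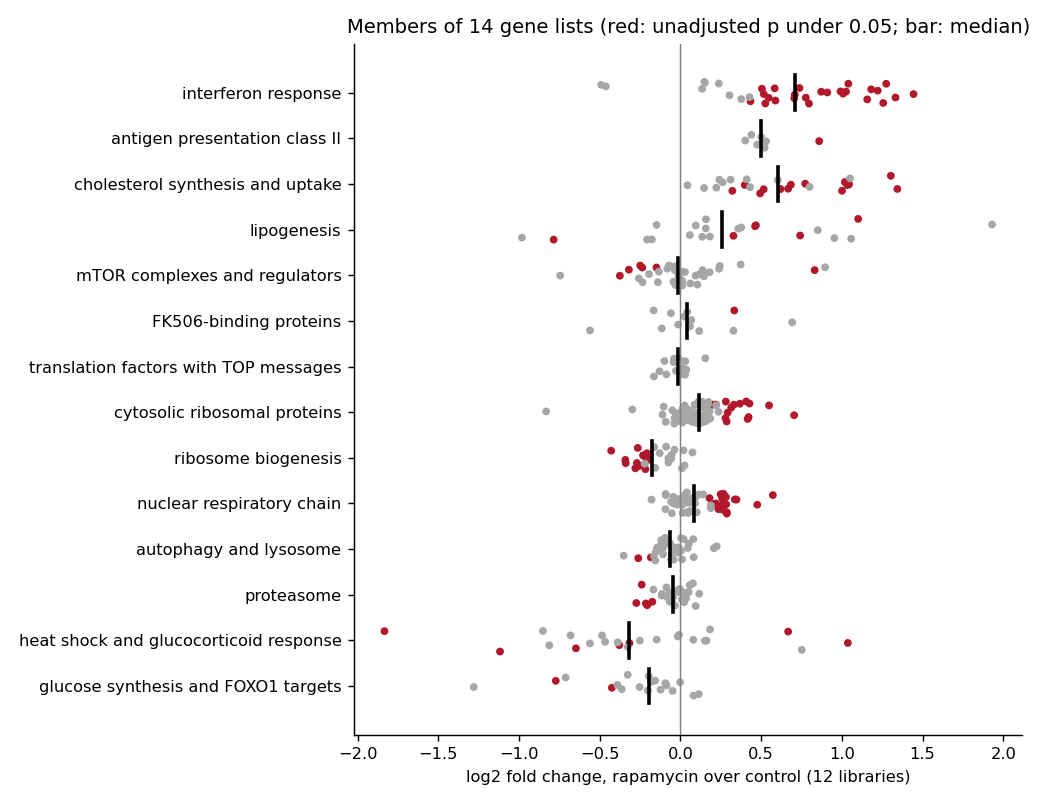
Log2 fold change of rapamycin over control for each tested member of 14 gene lists, 1 point per gene, red where the unadjusted p was under 0.05, with a bar at the list's median. The interferon and cholesterol lists have medians of 0.71 and 0.60 and ribosome biogenesis -0.18.

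The sexes were then compared. The test of the male minus female difference in the rapamycin effect called 0 of 14021 genes in edgeR, with 598 (4.27%) at an unadjusted p under 0.05, and 8 in DESeq2. Within females 22 interferon genes were higher and 1 lower at an unadjusted p under 0.05, with a median of 0.87, and within males 1 was higher and 0 lower, with a median of 0.41. Over all genes 6.38% were higher and 5.09% lower within females, and 3.63% higher and 2.86% lower within males, so the male count is near the share over all genes. That the list had more such members in females is not shown to be a difference between the sexes, since no member passed the test of the difference. Cholesterol genes had medians of 0.51 in females and 0.58 in males. Ribosome biogenesis genes had medians of -0.18 in females and -0.13 in males.

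The same study holds 12 libraries of 12-month UM-HET3 mice, 6 on rapamycin at 14 ppm for 8 months and 6 controls. Dose, duration and age differ together between the experiments and cannot be told apart. The 12-month libraries were also shallower, with 15827608 to 20638697 counts. Lars2 was at 1636 to 2875 CPM in 12-month controls, against 128 to 596 CPM in 6-month controls. In the same controls mt-Nd3 was at 1.89 to 3.01 CPM, against 9.94 to 21.97 CPM. These differences between the sets are joined with dose, duration and age, and their part in the comparison was not tested. In the 12-month mice 3.54% of 14246 genes were higher and 4.16% lower at an unadjusted p under 0.05. The difference between the effects, 6 months minus 12 months, was higher for 5.97% of genes and lower for 4.16% at an unadjusted p under 0.05. Only Gm24187 passed the adjusted threshold in edgeR, with a difference of -2.44 ± 0.36 (adjusted p = 0.0206), and DESeq2 called 103 genes.

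That call depended on the libraries used. Leaving out any of the 6 rapamycin libraries of 6 months other than female 2 left 0 calls, as did leaving out control female 1, control male 1 or control male 2 of 6 months, or rapamycin male 1 or 3 of 12 months. Without rapamycin female 2 of 6 months there were 7 calls, and without control female 2 or control male 3 of 6 months there were 13. Without control female 3 of 6 months or control female 1 of 12 months there were 2, without control female 3 of 12 months 10, and without rapamycin female 3 of 12 months 5. Where edgeR called 0, between 1141 and 1497 genes had an unadjusted p under 0.05.

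The interferon list lay in opposite directions in the 2 experiments. At 6 months 25 of 34 members were higher and 0 lower, and at 12 months 0 were higher and 8 lower, with a median of -0.33. The difference between the effects was higher for 26 of 34 members at an unadjusted p under 0.05, with a median of 1.02. Among the genes with the smallest adjusted p for the difference were Rtp4, at 1.499 ± 0.27, Oas1a, at 2.27, Usp18, at 1.88, and Cd274, which encodes the immune checkpoint ligand PD-L1, at 1.73 ± 0.35 (adjusted p = 0.0932 for each, edgeR). Rtp4 was at 16.6, 16.6 and 33.7 CPM in rapamycin females and 8.11, 11.7 and 13.9 CPM in rapamycin males of 6 months, against 6.71, 9.42 and 10.2 CPM in control females and 7.40, 5.14 and 9.20 CPM in control males. Rapamycin females of 6 months were all above their controls. Several immune cell lists differed beside it. At 12 months 8 of 11 T cell markers were lower, with a median of -1.01, and by library the T cell median was -0.64, -1.01 and -0.76 in rapamycin females and -0.18, -0.26 and -0.13 in rapamycin males of that age. The difference, 6 months minus 12 months, was positive for 11 of 11 T cell markers, with a median of 1.16 and 2 of them higher at an unadjusted p under 0.05. It was higher for 4 of 7 class II antigen presentation genes, with a median of 1.13, and for 2 of 5 natural killer markers, with a median of 1.17. For B and plasma cells it was higher for 2 of 12 markers, with a median of 0.52, and for Kupffer cells and macrophages for 0 of 15, with a median of 0.11. The part of these cells in the interferon difference was not tested.

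For lipid genes the difference pointed the same way. Cholesterol genes had 0 higher and 1 lower at 12 months with a median of -0.02, and the difference was higher for 6 of 25 members, with a median of 0.61. Lipogenesis genes had 0 higher and 6 lower of 22 at 12 months, with a median of -0.34, and the difference was higher for 9 and lower for 1. For ribosome biogenesis the 12-month count was 1 higher and 0 lower with a median of 0.06, and the difference was lower for 11 of 26. The respiratory chain, with 5 of 54 higher at 12 months and a median of 0.16, showed a difference at an unadjusted p under 0.05 for 0 members. Rapamycin male 3 of 12 months carried skeletal muscle RNA, 2010 CPM over that list.

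**Figure D5:**
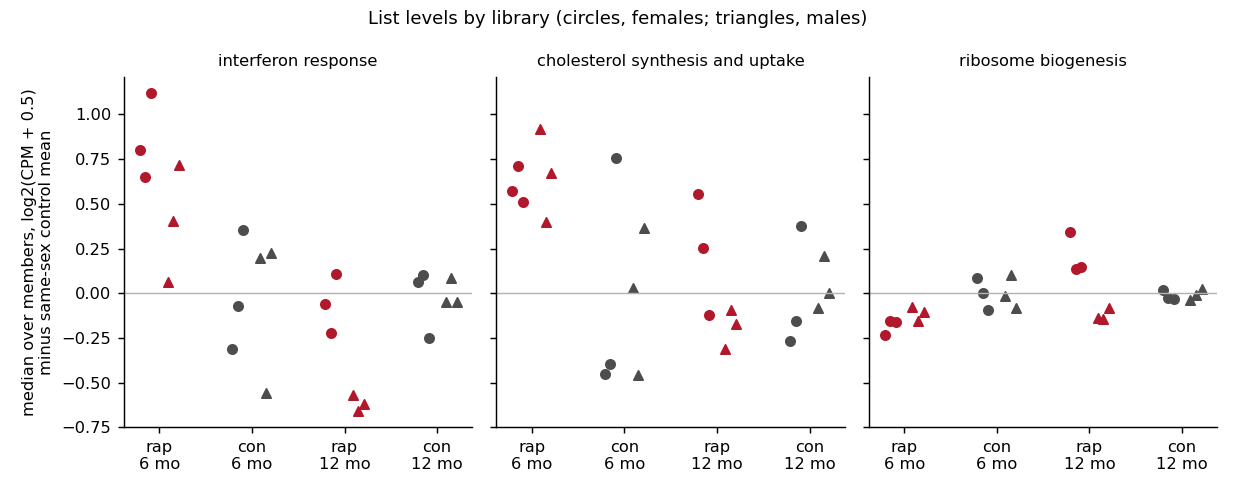
Median over list members of log2(CPM + 0.5) minus the mean of the same-sex controls of that age, 1 point per library (circles, females; triangles, males), with rapamycin left of control at 6 and 12 months. The interferon list lies between 0.06 and 1.12 in 6-month rapamycin livers and between -0.66 and 0.11 in 12-month rapamycin livers.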

How the data were processed

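Livers of UM-HET3 mice were profiled from polyadenylated RNA with Illumina TruSeq v2 libraries, per the labels' protocols. The authors deposited 1 table of whole-number counts of assigned reads per Ensembl gene (43629 genes), with no normalization. Per the submitters' processing notes, bcl2fastq 1.8.4, Trimmomatic 0.32, STAR 2.5.2b and featureCounts 1.5 were used with mouse build mm10 (GRCm38). The strand setting and the treatment of reads with several matches are not given in the sources used here.

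Genes with enough counts in the smallest group (edgeR's filterByExpr) were tested with edgeR 4.0.16 (TMM scaling, robust quasi-likelihood fit, R 4.3.3), with sex as a covariate, and p-values were adjusted over all genes tested. Single-sex effects, their difference and the difference from 12 months came from fits with 1 coefficient per group. DESeq2 1.42.0, other scaling, no filter on low counts, all 36 libraries of 6 months, a replicate block and leaving out each library were alternatives. The 12 members of the comparison and the 44 gene lists (934 of 936 entries matched) were chosen with earlier results of these data known. Lists are described by counts and medians, and no set test was run. Genes named were those past the threshold with or without rapamycin male 2 (up to 15 per direction, mean log2 CPM of at least 0, moved the same way in every rapamycin library), from each list the 4 or fewer members of lowest p, and the adrenal genes. Others that the text gives values for were chosen after their values were seen. Depth was 24788089 to 31973353 counts. Within each sex and treatment group, no 2 libraries agreed within sampling noise. Pairs across groups were not compared. Single-gene values of a few list members are not reported here.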

Additional observations from a re-analysis of the deposited data

Results flagged for a closer look

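The rapamycin effect on Gm24187 differed between the 6-month and the 12-month experiments by -2.4383 in log2, and it was the 1 gene past the adjusted threshold in that test. Transcripts of other organs appear in libraries that the comparison does not use. Myh6 of heart muscle stood at 24.3 CPM in 6-month 17-alpha-estradiol female 1, and at 17.1 and 16.1 CPM in control males 2 and 3 of the methionine restriction experiment, against at most 0.078 CPM in the 6 controls used here. Cyp11b1 of the adrenal cortex stood at 44.2 CPM in 12-month calorie-restricted female 1 and at 1.44 CPM in 6-month 17-alpha-estradiol male 2, against at most 0.53 CPM in those controls.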

How the results depend on the processing

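The number of genes called for rapamycin at 6 months was 7, and it was 316 with DESeq2, 61 with all 36 libraries of 6 months in 1 fit, 8 with 35 of them (without rapamycin male 2, 8 higher and 0 lower, 2 among the 7), and 0 with rapamycin males 2 and 3 alone, where fewer samples entered. Leaving out 1 library each gave 0 to 62 calls. A replicate block gave 8 calls, 2 of them among the 7. Same-numbered rapamycin and control libraries correlated in their deviations at 0.15, 0.06 and 0.24 in females and at -0.15, -0.23 and -0.10 in males. As these values are small and of both signs, they do not settle whether the numbers pair the mice. The sex difference had 0 calls, against 8 with DESeq2, 0 with a replicate block, and 0 to 1 without 1 library each. The difference between 6 and 12 months had 1 call, against 103 with DESeq2, 3 with a replicate block, 0 without the 2 libraries with adrenal and skeletal muscle RNA, and 0 to 13 without 1 library each. Causes of these shifts were not tested. Over 169 named genes and all alternatives, 3233 values kept their direction and their side of the threshold, 49 gained the threshold, 50 lost it and 43 changed sign. None of the genes that changed sign was past the threshold, and most are adrenal, adipose, muscle or red cell genes. Of the list medians 780 moved by less than the spread between libraries and 20 by more. Low-count genes such as Gm24187 and Cenpl are limited by depth.

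With rapamycin males 2 and 3 alone, the sign of the log2 fold change turned for Cd2 (0.22), Cfd (1.69), Hlf (-0.00049), Stab2 (0.063), Hba-a1 (0.62), Hba-a2 (0.85), Hbb-bs (0.70), Acta2 (0.26) and Tagln (0.031). With the 35 libraries of 6 months other than rapamycin male 2, it turned for Adipoq (-2.86), Fabp4 (-0.99), Plin1 (-3.39), Cyp21a1 (-0.86), Hsd3b1 (-3.41), Star (-0.11), Slc18a1 (-0.23), Slc18a2 (-0.31) and Psat1 (-0.15), and with a replicate block for Adipoq (-0.72), Fabp4 (-0.071), Plin1 (-0.75), Slc18a1 (-0.024) and Slc18a2 (-0.065). Leaving out 1 library each, the values ran from -2.53 to 2.35 for Adipoq, -5.19 to 1.06 for Cfd, -0.94 to 1.51 for Fabp4, -4.14 to 4.74 for Plin1, -0.75 to 7.88 for Cyp21a1, -1.80 to 8.11 for Hsd3b1, -0.098 to 4.50 for Star, -0.21 to 0.25 for Slc18a1, -0.31 to 0.14 for Slc18a2, -0.089 to 1.58 for Psat1 and -0.38 to 0.085 for Mylpf. For all but Mylpf the lowest value was the one without rapamycin male 2.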

Other observations

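Of 19 bile acid genes, 1 was higher and 3 were lower at an unadjusted p under 0.05, where 7.2% of all genes were higher and 6.63% lower. Cyp8b1, which sets the share of cholic acid, was at 385, 345 and 604 CPM in rapamycin females and 696, 525 and 677 CPM in rapamycin males, against 712, 720 and 658 CPM in control females and 768, 980 and 609 CPM in control males, a log2 fold change of -0.48 ± 0.16. Akr1d1, the reductase of bile acid synthesis, was at 0.46 ± 0.16, and Cyp7a1, the rate-limiting enzyme, at 0.41 ± 0.25. The acute phase gene Saa1 was at 7.84, 11.5 and 20.9 CPM in rapamycin females and 13.5, 26.3 and 44.3 CPM in rapamycin males, against 54.0, 109 and 16.7 CPM in control females and 17.8, 25.5 and 167 CPM in control males. These ranges overlap. Saa1 and Orm3 were the 2 of 22 acute phase genes that were lower. Clock genes had 1 of 20 higher and 3 lower (1 lower without rapamycin male 2), among the 3 Arntl at -0.97 ± 0.41.

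Drug metabolism genes had 4 of 31 higher and 1 lower at an unadjusted p under 0.05. For this list and those below, the shares over all genes were 7.2% higher and 6.63% lower. Nr1i3, the nuclear receptor CAR that induces them, was higher in every rapamycin library than in every control of its sex, at 112, 84.9 and 88.4 CPM in rapamycin females and 102, 82.1 and 67.2 CPM in rapamycin males, against 57.3, 82.4 and 69.7 CPM in control females and 64.3, 47.7 and 46.5 CPM in control males. Its log2 fold change was 0.55 ± 0.13 (adjusted p = 0.144, edgeR). Gstm3, a glutathione transferase, was at 1.07 ± 0.30 (adjusted p = 0.183, edgeR), and Por, the electron donor of the cytochrome P450 enzymes, at -0.34 ± 0.15. On the other 6-month interventions, 12 of 12 females and 7 of 12 males exceeded the highest control of their sex for Gstm3. Below the lowest control were 0 in either sex. Lipoprotein and triglyceride genes had 5 of 26 higher and 3 lower. Pltp, the phospholipid transfer protein, was at 0.71 ± 0.21, and Apoa5, an apolipoprotein that lowers plasma triglyceride, was at -0.28 ± 0.10 and lower in every rapamycin library than in every control of its sex. The growth hormone and IGF list had 0 of 18 members in either direction. Female-biased liver genes had 1 of 23 higher and 3 lower (Sult3a1 is 1 of these), and male-biased genes 1 of 21 higher and 2 lower.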
